A study of Mus musculus with 10 samples.

Results

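The 10 genes described here encode enzymes that build triglyceride from glycerol 3-phosphate in the hepatocyte, and they were chosen by name as glycerol-3-phosphate acyltransferases (Gpam, Gpat3 and Gpat4), acylglycerol-phosphate acyltransferases (Agpat2 and Agpat3), lipins (Lpin1, Lpin2 and Lpin3) and diacylglycerol acyltransferases (Dgat1 and Dgat2). All 10 were present among the 56748 genes of the count table, and all 10 passed the filter on low counts. RNA was sequenced from primary hepatocytes of wild-type mice after a night in medium conditioned by fasted cultured adipocytes. One group of 5 libraries, Mttp_flox_CM, received medium of adipocytes carrying floxed Mttp alleles, and the other group of 5, Mttp_KO_CM, received medium of adipocytes from mice that lacked Mttp in adipose tissue. The product of Mttp, the microsomal triglyceride transfer protein, loads lipid onto apolipoprotein B. The hepatocytes of both groups had intact Mttp. The adipocytes of both groups were grown from stromal vascular cells that came from the inguinal fat of males (3 mice given in the labels) fed an obesogenic diet for 6 months, and were differentiated with IBMX, insulin, dexamethasone, indomethacin and rosiglitazone. The sources used here do not give the Cre promoter behind the Mttp deletion, the mouse ages or the number of hepatocyte donors. Separate cultures or animals for the 5 libraries of a group are not stated either. A p-value here therefore reflects spread among libraries alone, and that spread may be technical.

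In the glycerol phosphate pathway a GPAT adds the first acyl chain to glycerol 3-phosphate, an AGPAT adds the next to form phosphatidate, a lipin removes the phosphate to give diacylglycerol, and a DGAT adds the last chain to give triglyceride. Phosphatidate and diacylglycerol also feed phospholipid synthesis. In liver the triglyceride is stored in lipid droplets or secreted in very low density lipoprotein, and Gpam and Dgat2 are known as genes that respond to insulin and feeding, while Lpin1 is known to respond to fasting and glucocorticoids.

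Total counts per library ran from 14199798 to 17178131. Levels are given as CPM (counts scaled to library size by TMM, the trimmed mean of M values) where 1 gene is compared between groups, and as the authors' FPKM, which is per gene length, where genes are compared with each other. The 2 columns whose number no label gives, 1 in each group, are called the unnumbered libraries. Values listed by library follow the order replicates 1, 2, 3, 4 and unnumbered. Cell type markers are called by the edgeR test described below (adjusted p under 0.05), which called 18.2% of all genes tested higher and 18.1% lower. Log2 changes of the markers called lower ran from -0.08 for Hnf4a to -2.16 for Clec4g. Of 8 hepatocyte markers all were expressed, 7 lower and 1 higher in Mttp_KO_CM. Their summed level was 42043 to 43571 CPM with flox medium against 34709 to 36120 CPM with KO medium. All 8 endothelial markers were lower (summed 1585 to 1695 CPM against 930.02 to 983 CPM), as were 6 of 8 stellate cell markers (81.6 to 89.5 against 46.6 to 51.7 CPM) and 7 of 8 macrophage markers, with Cd68 higher (661 to 718 against 464 to 517 CPM). Of 4 cholangiocyte markers 1 was lower (36.7 to 40.6 against 30.6 to 33.1 CPM). In bulk RNA, fewer cells of a type and less RNA per cell cannot be told apart. The part of these other cells in the changes described below was not tested. Of 8 adipocyte markers the adipokine genes Lep and Cfd were at 0 in every library, Adipoq averaged 0 and 0.0491 CPM, Retn 0.0402 and 0 CPM and Plin1 0.119 and 0.401 CPM, while Fabp4, Cidec and Lipe, the 3 tested, were higher in Mttp_KO_CM (summed over the 8 genes, 136 to 158 against 227 to 244 CPM).

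In bulk RNA of hepatocytes given knockout medium, relative levels were higher for the chosen GPAT and AGPAT genes and for Dgat2, and the mix of lipins was shifted. All 3 GPAT genes, both AGPAT genes, Lpin2 and Dgat2 were higher, Lpin1 and Lpin3 were lower, and Dgat1 did not pass the test. That made 7 higher and 2 lower of 10, of which the Lpin1 call was lost in 13 of 19 alternatives, leaving 1 lower, and the Agpat2 call in 1 of 19. The calls are by edgeR's quasi-likelihood test with Benjamini-Hochberg adjustment over all genes and a threshold of 0.05. Over all 14183 genes tested the same test called 36.4%, with 18.2% higher and 18.1% lower. The median log2 change was 0.20 over the 10 genes and 0.00 over all genes tested. For 7 of the 10 genes no Mttp_KO_CM library overlapped the Mttp_flox_CM range in CPM, against 25.7% of genes tested. Only Gpam, Gpat3 and Dgat2 changed by 1.5-fold or more, and 7.47% of genes tested were called with a change of that size. The genes were picked with earlier results of these data known, so these counts describe them and do not test them as a set.

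**Figure D1:**
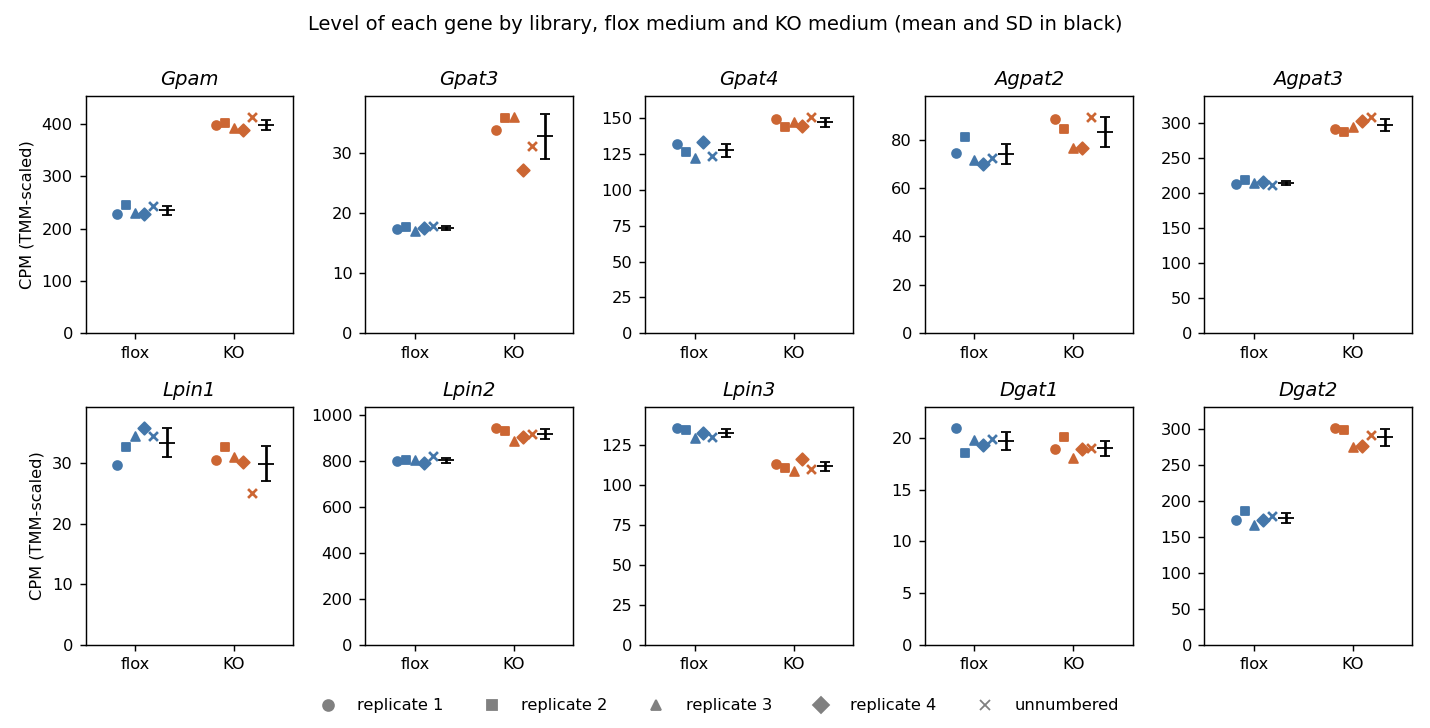
CPM (y axis, TMM-scaled) of each of the 10 genes in the 5 libraries given flox medium (blue) and the 5 given KO medium (orange), 1 symbol per library, with the mean and SD in black. Gpam, Gpat3, Gpat4, Agpat3, Lpin2 and Dgat2 sit wholly higher in KO medium and Lpin3 wholly lower, while Agpat2, Lpin1 and Dgat1 overlap.

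Gpam encodes GPAT1, the outer mitochondrial membrane enzyme that is a main entry point for new fatty acids into liver triglyceride (ENSMUSG00000024978, chromosome 19 from 55055700 to 55115670, minus strand, GRCm39). Its level was 228, 245, 231, 228 and 244 CPM in Mttp_flox_CM and 397, 402, 393, 388 and 413 CPM in Mttp_KO_CM. The groups were far apart, with every library within a few percent of its group mean. The mean rose from 235 ± 8.41 to 398 ± 9.58 CPM (SD, n = 5), a log2 change of 0.76 (SE 0.029, 95% interval 0.70 to 0.82, edgeR adjusted p = 1.2e-16).

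Gpat3, an endoplasmic reticulum GPAT best known from adipocytes, was far less abundant but rose by a larger fold (ENSMUSG00000029314, chromosome 5 from 100993579 to 101046968, plus strand). It stood at 17.3, 17.7, 17.0, 17.5 and 17.9 CPM in Mttp_flox_CM and at 33.8, 35.9, 36.0, 27.1 and 31.2 CPM in Mttp_KO_CM. The flox libraries were nearly equal, and the KO libraries were all higher but spread, with replicate 4 lowest. The log2 change was 0.91 (SE 0.069, edgeR adjusted p = 9.7e-11), on 248 to 282 counts per library in Mttp_flox_CM and 426 to 608 in Mttp_KO_CM. In Mttp_KO_CM its coefficient of variation was 11.3%, where counting alone gives about 4.47%. In Mttp_flox_CM it was 2.09%, where counting alone gives about 6.13%. The flox values thus lay closer together than counting gives on average, and their near equality does not show a well-fixed level. A long noncoding gene on the opposite strand, 4930458D05Rik, overlaps its span and had 5.09% of its counts.

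Gpat4, the other endoplasmic reticulum GPAT, rose least of the 3 (ENSMUSG00000031545, chromosome 8 from 23661281 to 23698362, minus strand). Its libraries read 132, 126, 122, 133 and 124 CPM in Mttp_flox_CM and 149, 143, 147, 144 and 151 CPM in Mttp_KO_CM. The gap between the groups was narrow but unbroken, a log2 change of 0.21 (SE 0.033, edgeR adjusted p = 1.9e-05).

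Promoter sequence is shown for the 2 GPAT genes with the larger rises and for Lpin3, which moved the other way, since all are described by how they moved. Of the 10 genes, 7 had entries in the RefSeq promoter table (GRCm38.p6), and Gpat4, Dgat1 and Dgat2 had none. Each line gives the 250 bases before the transcription start, 5′ to 3′ on the gene's strand, with capitals marking any match to the motifs searched. The start shown for Gpam and for Lpin3 is the one farther upstream of 2 listed. The windows are chr19:55127239-55127488 on the minus strand, chr5:100845979-100846228 on the plus strand and chr2:160880420-160880669 on the plus strand.
Gpam: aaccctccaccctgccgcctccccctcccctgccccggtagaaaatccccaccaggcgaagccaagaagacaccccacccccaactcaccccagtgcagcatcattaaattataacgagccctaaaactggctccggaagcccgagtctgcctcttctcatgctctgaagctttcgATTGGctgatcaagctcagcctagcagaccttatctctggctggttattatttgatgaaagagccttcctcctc
Gpat3: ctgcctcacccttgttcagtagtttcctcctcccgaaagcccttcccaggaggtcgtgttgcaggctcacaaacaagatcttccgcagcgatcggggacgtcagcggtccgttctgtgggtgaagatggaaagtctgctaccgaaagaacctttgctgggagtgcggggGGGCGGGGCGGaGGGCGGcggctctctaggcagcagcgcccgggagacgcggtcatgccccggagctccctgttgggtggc
Lpin3: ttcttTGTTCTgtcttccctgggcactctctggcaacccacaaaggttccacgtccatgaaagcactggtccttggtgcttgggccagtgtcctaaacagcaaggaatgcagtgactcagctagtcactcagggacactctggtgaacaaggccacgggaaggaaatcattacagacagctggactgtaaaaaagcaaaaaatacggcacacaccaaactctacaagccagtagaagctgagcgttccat
The letters searched on both strands were a sterol regulatory element (TCACNCCAC), the DR1 repeat bound by PPAR and RXR, the DR4 repeat bound by LXR and RXR and the hexamer AGGTCA that lies within both, the E-box CACGTG, the CCAAT box, the full palindromic glucocorticoid element and the hexamer AGAACA that lies within it, and the GC box GGGCGG. In the windows shown, Gpam held 1 CCAAT on the reverse strand, Gpat3 held 3 GC boxes, of which 2 overlap, and Lpin3 held 1 AGAACA on the reverse strand. For Gpam and Lpin3 these matches depended on the start shown. The other Lpin3 entry lacked that hexamer and held 1 GC box. The other Gpam entry lacked the CCAAT box and held 1 GC box and 1 hexamer of the DR1 and DR4 repeats. The glucocorticoid hexamer was also in an entry of Lpin2, which rose, and in that of Lpin1, which was lower. Across 32841 promoters of the same length, CCAAT was found in 33.9%, GGGCGG in 32.7%, AGAACA in 16.1%, AGGTCA in 14.0%, CACGTG in 6.02% and TCACNCCAC in 1.05%. DR1 was found in 0.0335%, DR4 in 0.0152% and the full glucocorticoid element in 0.00913%. None of the 11 entries of these genes held TCACNCCAC, DR1, DR4 or the full glucocorticoid element, which says only that those letters are not in these windows.

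Agpat3, a lysophosphatidate acyltransferase of the endoplasmic reticulum and Golgi, was the clearer riser of the next step (ENSMUSG00000001211, chromosome 10 from 78105012 to 78188323, minus strand). Its values were 212, 218, 214, 216 and 211 CPM in Mttp_flox_CM and 291, 287, 293, 302 and 308 CPM in Mttp_KO_CM. No KO library came near the flox range, with a log2 change of 0.47 (SE 0.027, edgeR adjusted p = 7.5e-13).

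Agpat2, whose human counterpart is mutated in a congenital lipodystrophy, changed by little (ENSMUSG00000026922, chromosome 2 from 26483069 to 26494429, minus strand). It read 74.6, 81.0, 71.7, 70.1 and 72.6 CPM in Mttp_flox_CM and 88.7, 84.3, 76.6, 76.7 and 89.3 CPM in Mttp_KO_CM. The ranges overlapped, because flox replicate 2 lay above KO replicates 3 and 4. The log2 change was 0.17 (SE 0.049, 95% interval 0.07 to 0.27, edgeR adjusted p = 0.0089), and without both unnumbered libraries it was 0.13 with an adjusted p of 0.068. Agpat2 overlaps Egfl7, an endothelial gene on the opposite strand with 91.7% as many counts, which was chosen for mention after its values were seen. Egfl7 fell from 87.4 ± 3.99 to 56.1 ± 2.31 CPM (SD, n = 5), a log2 change of -0.64 (SE 0.042, edgeR adjusted p = 6.1e-12). With counts treated as unstranded, reads from the shared stretch cannot be told apart, and their part in the Agpat2 value was not tested.

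Among the lipins, the phosphatidate phosphatases, the most abundant and the next moved in opposite directions. Lpin2, a prominent lipin of liver, gave 799, 805, 802, 791 and 820.1 CPM in Mttp_flox_CM and 941, 928, 885, 901 and 919 CPM in Mttp_KO_CM (ENSMUSG00000024052, chromosome 17 from 71489555 to 71556812, plus strand). The ranges were separate though the shift was small, a log2 change of 0.19 (SE 0.024, edgeR adjusted p = 7.7e-07).

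Lpin3, the least studied lipin, fell (ENSMUSG00000027412, chromosome 2 from 160722590 to 160747922, plus strand). Its levels were 135, 134, 129, 132 and 130.04 CPM in Mttp_flox_CM and 113, 111, 109, 116 and 110.02 CPM in Mttp_KO_CM. Every KO library lay below every flox library, a log2 change of -0.24 (SE 0.032, 95% interval -0.31 to -0.18, edgeR adjusted p = 1.1e-06).

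Lpin1, the founding lipin, is also a partner of the coactivator PGC-1α and the receptor PPARα in hepatocytes (ENSMUSG00000020593, chromosome 12 from 16585670 to 16696967, minus strand). It stood at 29.7, 32.7, 34.6, 35.8 and 34.6 CPM in Mttp_flox_CM and at 30.6, 32.8, 31.1, 30.3 and 25.0 CPM in Mttp_KO_CM. The groups overlapped, since flox replicate 1 was below 4 of the KO libraries, and the unnumbered KO library was the lowest of all. The log2 change was -0.16 (SE 0.063, 95% interval -0.29 to -0.03, edgeR adjusted p = 0.0495), the weakest call among the 10 genes. It passed the threshold in 6 of 19 alternatives and lost it in 13, with adjusted p from 0.014 to 0.29. Leaving out any single library other than Mttp_flox_CM replicate 1 or Mttp_KO_CM replicate 2 lost the call. Without both unnumbered libraries the change was -0.09 (adjusted p = 0.26), and without the unnumbered Mttp_KO_CM library alone it was -0.11 (adjusted p = 0.165).

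**Figure D2:**
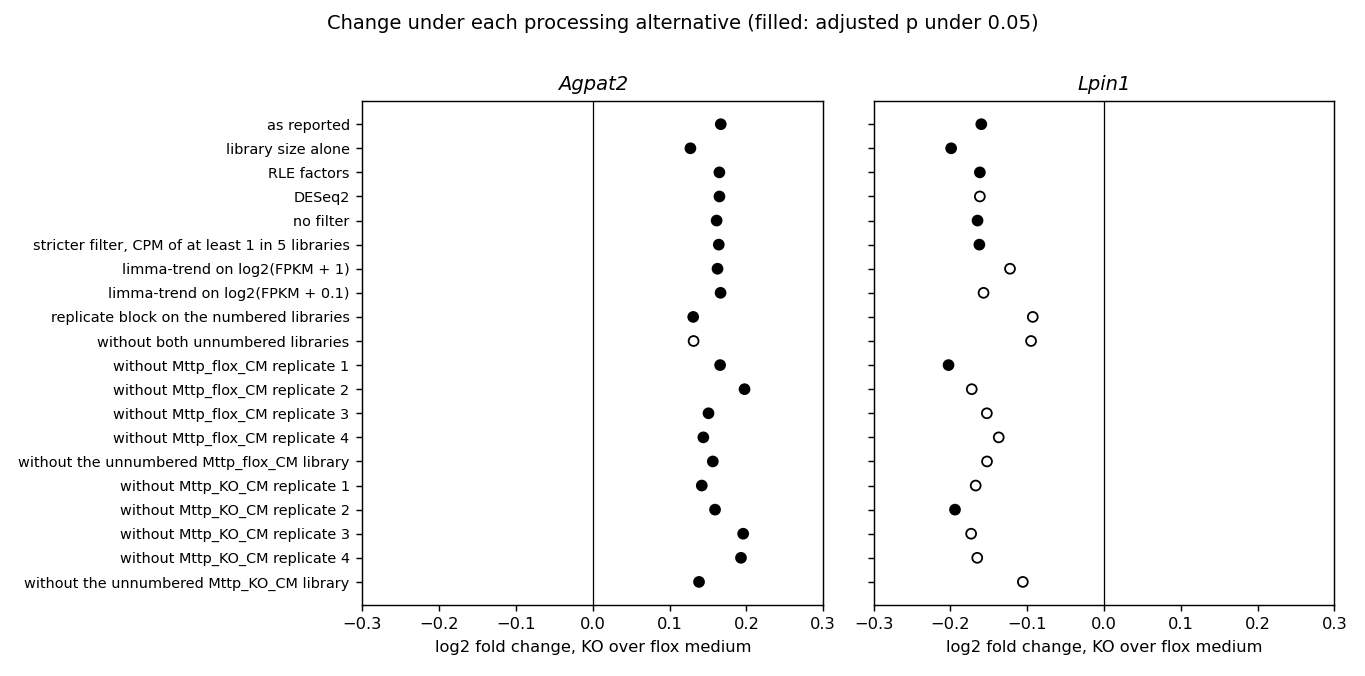
Log2 fold change of Agpat2 and Lpin1 (x axis, KO over flox medium) under each processing alternative (y axis), filled where the adjusted p was under 0.05. Agpat2 stays between 0.13 and 0.20 and opens once, without both unnumbered libraries, while Lpin1 stays between -0.20 and -0.09 and is open under 13 of 19 alternatives.

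Dgat2 makes triglyceride mainly from newly made fatty acids at the endoplasmic reticulum and the droplet surface (ENSMUSG00000030747, chromosome 7 from 98802865 to 98831926, minus strand). Its libraries gave 174, 185, 167, 173 and 179 CPM in Mttp_flox_CM and 301, 298, 275, 277 and 291 CPM in Mttp_KO_CM. The lowest KO library was well above the highest flox library. The mean rose from 175 ± 6.89 to 288 ± 11.8 CPM (SD, n = 5), a log2 change of 0.72 (SE 0.033, 95% interval 0.65 to 0.79, edgeR adjusted p = 6.5e-15).

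Dgat1, of an unrelated protein family and known for re-esterifying fatty acids from outside or from droplets, was low in both groups (ENSMUSG00000022555, chromosome 15 from 76386215 to 76396153, minus strand). It read 20.9, 18.5, 19.8, 19.3 and 19.9 CPM in Mttp_flox_CM and 18.9, 20.1, 18.0, 18.9 and 19.1 CPM in Mttp_KO_CM. The values interleaved, on 267 to 319 counts per library. The log2 change was -0.05 (SE 0.061, edgeR adjusted p = 0.56), and its 95% interval ran from -0.18 to 0.07.

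Per gene length, the order of the 10 genes changed between the media. In Mttp_flox_CM the levels were 65.3 ± 0.909 FPKM for Lpin2 and 56.6 ± 2.23 FPKM for Dgat2 (SD, n = 5), then 35.6 ± 0.684 for Lpin3, 35.1 ± 1.27 for Gpam and 34.5 ± 1.95 for Agpat2, which did not differ beyond their spread. Below these came Agpat3 at 27.4 ± 0.373 FPKM and Gpat4 at 19.0 ± 0.725 FPKM, and the lowest were Dgat1 at 6.41 ± 0.282, Gpat3 at 4.97 ± 0.109 and Lpin1 at 3.35 ± 0.242 FPKM. In Mttp_KO_CM Dgat2 led at 93.0 ± 3.77 FPKM, followed by Lpin2 at 74.4 ± 1.75 and Gpam at 59.5 ± 1.41 FPKM. Agpat2 at 38.8 ± 2.88 and Agpat3 at 37.8 ± 1.11 FPKM did not differ beyond their spread, and Lpin3 at 30.1 ± 0.778, Gpat4 at 21.9 ± 0.441, Gpat3 at 9.31 ± 1.05, Dgat1 at 6.19 ± 0.243 and Lpin1 at 3.00 ± 0.292 FPKM followed. Lpin2 ranked 1 and Dgat2 ranked 2 in every flox library, and these ranks were exchanged in every KO library. Lpin3 ranked 3 to 5 in the flox libraries and 6 in every KO library. Against all genes tested, the mean FPKM of Dgat2 lay at percentile 95.8, that of Lpin2 at 95.4 and that of Lpin1 at 38.8.

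Summed over the genes of a step, the ratios of KO to flox medium ran from 1.03 to 1.58, and differences between steps were not tested. The 3 GPAT genes summed to 57.4 to 60.3 FPKM in Mttp_flox_CM and 87.1 to 92.8 FPKM in Mttp_KO_CM, with means in a ratio of 1.54. The 2 DGAT genes summed to 60.1 to 65.7 and 94.7 to 103 FPKM, a ratio of 1.58, and the 2 AGPAT genes to 60.4 to 65.6 and 73.2 to 80.9 FPKM, a ratio of 1.24. With Agpat1, Agpat4, Agpat5 and Lclat1 added, the AGPAT sum was 84.7 to 90.2 and 99.0 to 106.6 FPKM, a ratio of 1.17. The 3 lipins summed to 103 to 105 FPKM in Mttp_flox_CM and 104 to 109.9 FPKM in Mttp_KO_CM, ranges that overlapped, with a ratio of 1.03. Within the lipin sum, Lpin2 made up 62.6 ± 0.556% in Mttp_flox_CM and 69.2 ± 0.676% in Mttp_KO_CM (SD, n = 5), and Lpin3 34.1 ± 0.660% and 28.0 ± 0.606%. Per gene length, the lipin sum was therefore nearly level while its composition moved from Lpin3 toward Lpin2. This depends on the deposited lengths, 12233 bases for Lpin2 and 3694 for Lpin3. In CPM, the mean rise of Lpin2 (803 to 915) was larger than the mean fall of Lpin3 (132 to 112). RNA levels per length are not enzyme activities, so the sums compare transcripts only.

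**Figure D3:**
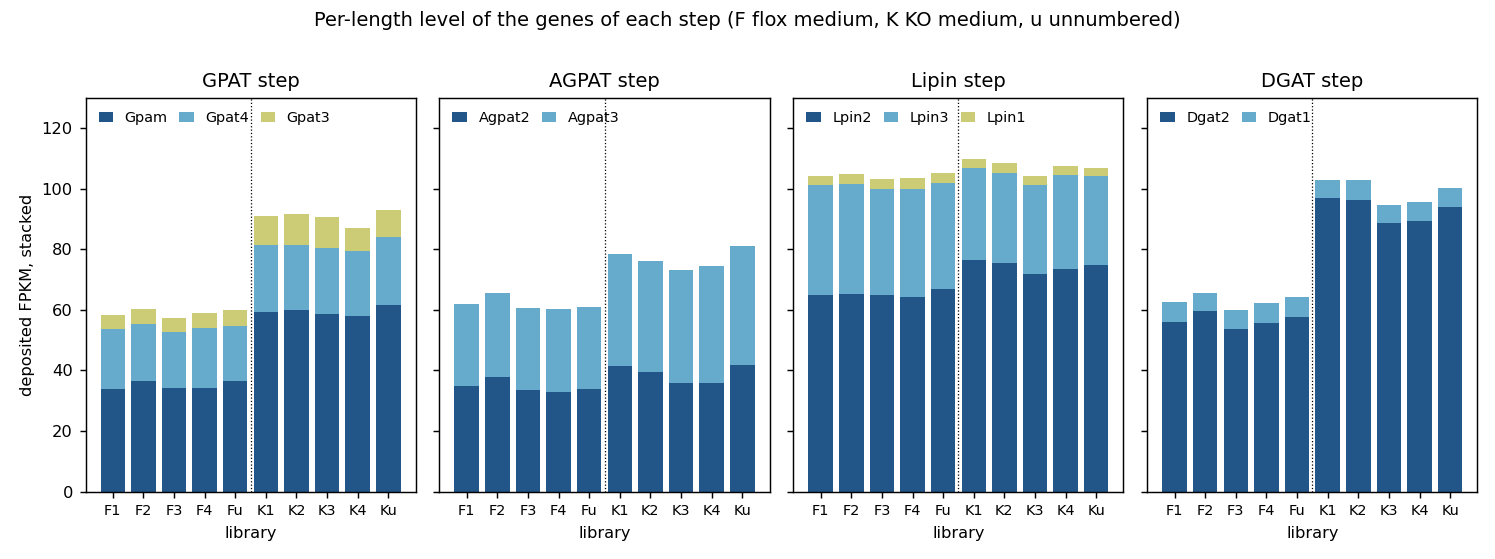
Deposited FPKM (y axis) of the genes of each of the 4 steps, stacked, in the 5 flox-medium libraries (F) and the 5 KO-medium libraries (K), with u the unnumbered ones. The GPAT and DGAT stacks are 1.54 and 1.58 times as high on average in KO medium, while the lipin stacks, with a ratio of 1.03, hold more Lpin2 and less Lpin3.

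Whether 2 enzymes of a step changed unequally was tested on their FPKM ratio within each library, which does not depend on how libraries are scaled. Dgat2 over Dgat1 was 8.23, 9.90, 8.36, 8.88 and 8.90 in Mttp_flox_CM and 15.7, 14.7, 15.1, 14.5 and 15.1 in Mttp_KO_CM. Gpam over Gpat4 was 1.72 to 1.98 with flox medium and 2.67 to 2.81 with KO medium. These 2 ratios were higher in all 5 KO libraries, by 0.77 and 0.56 on the log2 scale. Agpat2 over Agpat3 ran from 1.19 to 1.36 and from 0.928 to 1.12, lower in all 5 KO libraries by a log2 difference of -0.30. Lpin2 over Lpin1 ran from 17.9 to 21.8 and from 23.0 to 29.8, higher by 0.35, and by 0.29 without the unnumbered Mttp_KO_CM library. Each of the 4 two-sided exact permutation tests gave p = 0.0079, also after Benjamini-Hochberg adjustment over the 4 ratios, which is the smallest p that 5 against 5 libraries allow. The genes were chosen with earlier results of these data known, so these p-values only describe the 4 pairs. Lpin2 over Lpin3 was not tested.

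**Figure D4:**
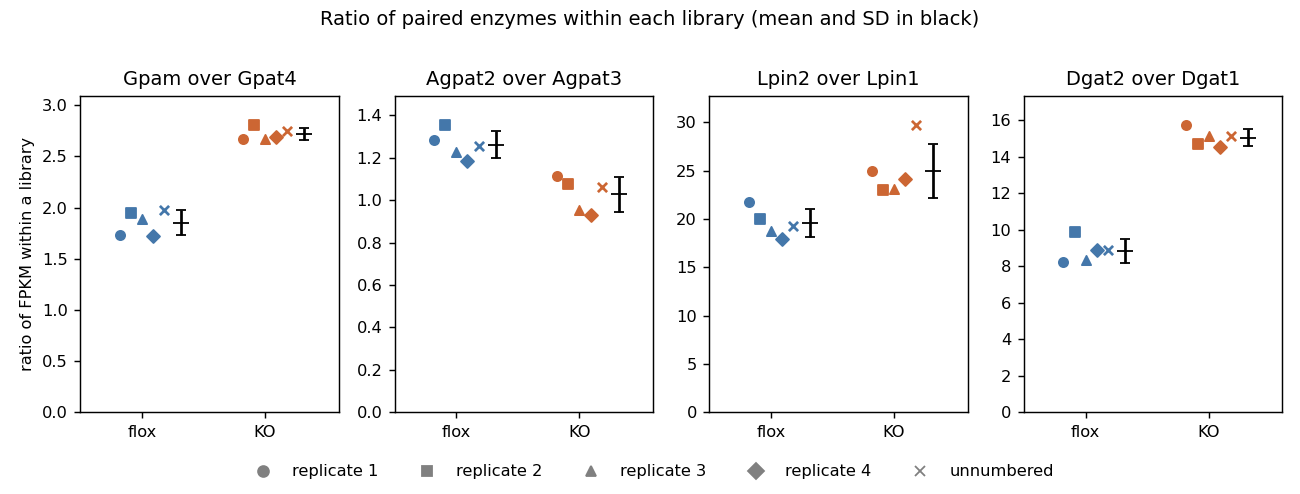
Ratio of the FPKM of 2 enzymes of the same step within each library (y axis), for flox medium (blue) and KO medium (orange), with the mean and SD in black. The groups do not overlap for any of the 4 ratios, and the highest value of Lpin2 over Lpin1 is 29.8 in the unnumbered KO library.

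Genes around these enzymes were taken from lists written with earlier results of these data known, and each count below stands against 18.2% higher and 18.1% lower over all genes tested, whose median log2 change was 0.00. Of the genes that supply glycerol 3-phosphate 3 of 5 tested were higher and 0 lower, with a median log2 change of 0.31. Gk, the glycerol kinase, rose from 109 ± 3.39 to 159.7 ± 2.91 CPM (log2 0.56) and Gpd1, the glycerol-3-phosphate dehydrogenase of the cytosol, by 0.31, while the glycerol channel gene Aqp7 rose by 1.14 at under 1 CPM (adjusted p = 0.0091 by edgeR) and Aqp9 had a log2 change of -0.09 (adjusted p = 0.18). Among other acyltransferases of the pathway 2 of 5 were higher, Lclat1 by 0.27 and the peroxisomal Gnpat by 0.17, and Agpat1 was lower (log2 -0.19). Agpat4 had a log2 change of -0.19 (SE 0.15, edgeR adjusted p = 0.34). Agpat1 made up 9.89 ± 0.578% of the summed FPKM of 6 AGPAT genes in Mttp_flox_CM and 7.41 ± 0.0866% in Mttp_KO_CM (SD, n = 5).

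Other phosphatidate phosphatases and regulators of lipins formed a list of 6 genes, of which 0 were higher, 3 lower and 3 did not pass, with a median log2 change of -0.12. The 3 lower genes encode membrane lipid phosphatases, Plpp1 by a log2 change of -0.46, Plpp3 by -0.17 and Plpp6 by -0.22. Plpp2 had a log2 change of 0.06 (adjusted p = 0.22). Of 6 genes of the monoacylglycerol and DGAT families 2 could be tested, and neither passed. Mogat2 stood at 3.29 ± 0.434 and 3.27 ± 0.725 CPM (SD, n = 5), Tmem68 had a log2 change of 0.09 (edgeR adjusted p = 0.28), and Awat1 and Dgat2l6 had 0 counts in every library. Among 13 genes tested that use phosphatidate or diacylglycerol by other routes 4 were higher and 3 lower, with a median log2 change of 0.01. The diacylglycerol kinases Dgkh and Dgkd rose by 0.54 and 0.18, Dgkz was lower (log2 -0.15), and Selenoi, an ethanolamine phosphotransferase, rose by 0.20, while Dgkg had 0 counts in every library. Of 6 genes of droplet emergence and breakdown 3 were higher and 0 lower. The lipase gene Pnpla2 rose by 0.72, Fitm2 by 0.18 and the seipin gene Bscl2 by 0.14, and Abhd5 had a log2 change of 0.09 (edgeR adjusted p = 0.16).

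**Figure D5:**
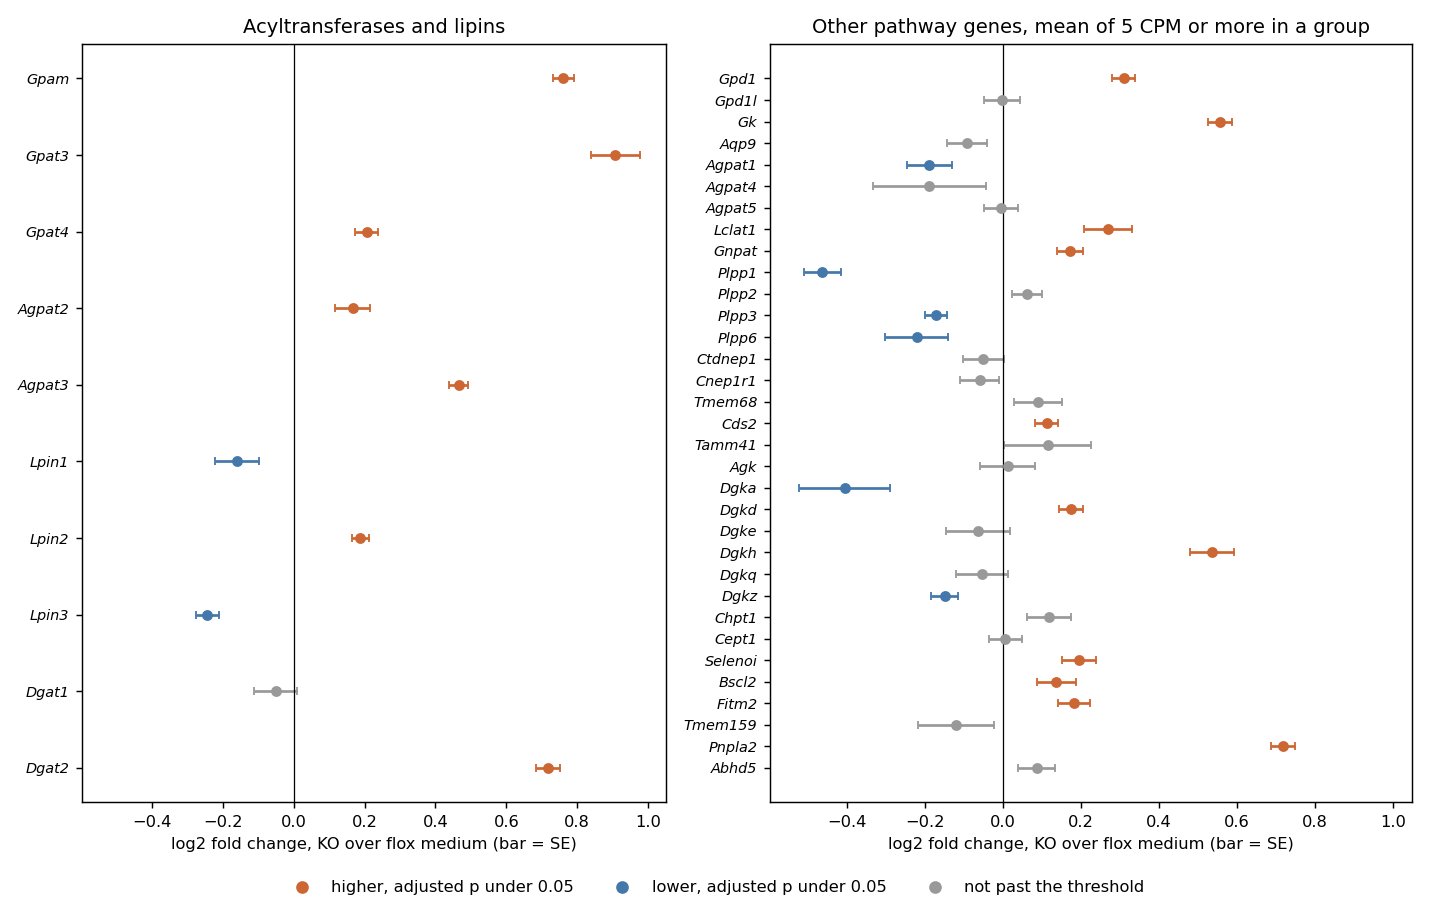
Log2 fold change with its SE (x axis, KO over flox medium) of the 10 acyltransferase and lipin genes (left) and of other genes of the pathway with a mean of at least 5 CPM in a group (right), coloured by the edgeR call. On the left Gpat3, Gpam and Dgat2 lie farthest out at 0.91, 0.76 and 0.72, and on the right Pnpla2 is the highest at 0.72 and Plpp1 the lowest at -0.46.

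Of 16 regulators known for these genes 6 were higher and 3 lower, with a median log2 change of 0.07, against the same 18.2% and 18.1% over all genes tested. Srebf1, whose SREBP-1c product acts on Gpam and other lipogenic genes, rose from 88.6 ± 2.74 to 146 ± 8.60 CPM (SD, n = 5; log2 0.72). Pparg fell from 33.1 ± 2.84 to 20.02 ± 2.27 CPM (log2 -0.72). Ppara rose by 0.33 and Mlxipl, which encodes the carbohydrate response factor ChREBP, by 0.20.

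By Pearson correlation of log2 CPM over the 10 libraries, among 10251 named genes with a mean of at least 5 CPM, the genes most like Gpam were Cyp2a22, Tlcd4 and Mttp (r = 0.998 for Cyp2a22), and those most like Dgat2 were Entpd5, Acaa1b and Creb3l3 (r = 0.996 for Creb3l3). For Lpin1 they were Tcf7l2, Nckipsd and Zmym4 (r = 0.94, 0.92 and 0.90). These values include the difference between the groups. By deviations from the group means, Dgat2 was most like Gpd1, Rcl1 and Tada2b (r = 0.96, 0.93 and 0.93), Gpam most like Gbf1, Ankrd16 and Gon4l (r = 0.94, 0.94 and 0.93) and Lpin1 most like Umad1, Nckipsd and Tcf7l2 (r = 0.93, 0.91 and 0.90). These are the highest of 10251 values over 10 libraries that share their depth and scaling, and they are given as a description.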

How the data were processed

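Poly-A selected RNA of 10 libraries was measured by sequencing. The authors deposited whole-number counts per gene and FPKM values. Per the submitters' processing notes, HISAT2 2.0.5, featureCounts 1.5.0-p3 and build GRCm39 were used. The sources used here name no strand setting, multi-mapping setting or annotation, so counts were treated as unstranded. The deposited FPKM equalled the count divided by the deposited gene length and 1 constant per library. That constant was not the summed count of the library. Summed counts were 0.980 to 0.984 of the library size it implies in Mttp_flox_CM and 1.005 to 1.013 in Mttp_KO_CM. Sums of FPKM depend on this scaling. Column names matched labels for 8 libraries, and 2 were placed in a group by their letter.

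The deposited counts went into edgeR 4.0.16 (R 4.3.3): filterByExpr (minimum count 10, minimum total 15), which kept 14183 genes and 99.8% of counts, TMM scaling and a quasi-likelihood test of the group, with Benjamini-Hochberg adjustment across every gene tested. The script was tested on simulated data. Intervals of log2 changes are 95% intervals from the fit. Ratios were tested by exact permutation in scipy 1.17.1. Alternatives used DESeq2 1.42.0, limma 3.58.1 on log2 of FPKM plus 1 or 0.1, other scalings and filters, a replicate block and omitted libraries. Named genes were the 10 enzymes, up to 4 genes with the smallest p per list, list genes at 0 in every library and, for Gpam, Lpin1 and Dgat2, the 3 most similar genes by each measure. Overlapping genes and cell type markers are named beside the results they touch, Egfl7 and 4930458D05Rik after their values were seen. Members and lists were chosen with earlier results of these data known. Counting error limits the least abundant genes.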

Additional observations from a re-analysis of the deposited data

Results flagged for a closer look

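The ratio of Lpin2 to Lpin1 in the unnumbered Mttp_KO_CM library was 29.8, where the other 4 libraries of its group lay between 23.0 and 24.9. Its gap to the nearest of them was just past the limit of Dixon's test for 5 values. Its Lpin1 level of 25.0 CPM was the lowest of the 10 libraries, while its Lpin2 level of 919 CPM lay within the range of its group. It was 1 of 28 groups of values examined in this way, 10 genes and 4 ratios in each medium. Chance alone gives about 1 in 20, so 1 among 28 does not show that the library differs.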

How the results depend on the processing

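The count of genes higher in Mttp_KO_CM was 7 under every alternative except without both unnumbered libraries, where it was 6 because Agpat2 did not pass. The count of genes lower was 2 as reported and 1 with DESeq2, with limma on log2(FPKM + 1) and on log2(FPKM + 0.1), with the replicate block on the numbered libraries and without both unnumbered libraries, and it ran from 1 to 2 when each library was left out in turn. The gene lost was Lpin1 each time, and the cause was not tested. Over all genes tested, deviations of same-numbered libraries correlated at -0.009 to 0.065, and those of differently numbered ones at -0.037 to 0.033. Counting error lowers such correlations, so they cannot exclude a pairing. The replicate block was fitted on the numbered libraries alone. Lpin1 changed by -0.093 with the block and by -0.095 in the same libraries without it, and passed in neither fit. Agpat2 had an edgeR adjusted p of 0.021 with the block and 0.068 without it. Gpam, Gpat3, Gpat4, Agpat3, Lpin2, Lpin3 and Dgat2 kept direction and call under all 19 alternatives, and Dgat1 stayed below the threshold in all 19 (log2 -0.09 to -0.03). No direction reversed, library size alone included. Because the groups do not overlap for any of the 4 ratios, leaving out libraries could not end a call, and ratios of counts differ only by gene length, so the 12 alternatives of each say nothing of the stability of the tests. The log2 differences ranged from 0.74 to 0.81 for Dgat2 over Dgat1, 0.53 to 0.58 for Gpam over Gpat4, -0.33 to -0.26 for Agpat2 over Agpat3 and 0.28 to 0.39 for Lpin2 over Lpin1. No blocked test of the ratios was run. Depth limits Gpat3, Dgat1 and Lpin1 most, where counting alone gives 4.42% to 6.13% error per library.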

Other observations

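Lpin1 is often set beside glucocorticoid and fasting genes, and in a list of 9 such genes 6 were lower, 2 higher and 1 did not pass the test in Mttp_KO_CM (edgeR, adjusted p under 0.05), against 18.1% lower and 18.2% higher over all genes tested. Fkbp5, a chaperone gene induced by glucocorticoids, fell from 132 ± 2.40 to 94.9 ± 5.67 CPM (SD, n = 5; log2 -0.47), Sgk1 fell from 179.8 ± 3.20 to 136 ± 9.57 CPM (log2 -0.40) and Igfbp1 from 1810.2 ± 33.8 to 1494 ± 78.9 CPM (log2 -0.28). Tat, the tyrosine aminotransferase gene, fell from 75.1 ± 15.6 to 38.4 ± 7.55 CPM (log2 -0.97). The 2 genes that rose, named after their values were seen, were G6pc, the glucose-6-phosphatase gene, from 23.6 ± 4.14 to 40.6 ± 6.03 CPM (SD, n = 5; log2 0.79), and Klf9 from 127 ± 3.79 to 145 ± 4.91 CPM (log2 0.19). The list was written with earlier results of these data known, and no relation of these genes to Lpin1 was tested.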
